A study of Mus musculus with 16 samples.

Results

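The Cyp3a drug-metabolizing enzymes of the mouse were followed in liver RNA from 16 aged mice. The 8 members, Cyp3a11, Cyp3a13, Cyp3a16, Cyp3a25, Cyp3a41a, Cyp3a41b, Cyp3a44 and Cyp3a59, were taken by gene symbol from the 41079 genes of the deposited count table, and all 8 passed the filter on low counts that left 16742 genes for testing. Cyp3a41b passed through the female mice alone, so it had to differ between the sexes, and the other 7 also passed on the male mice. Each sex gave 4 LKO mice and 4 CRE- controls, all 20 to 22 months old and on the C57BL/6J background. Every mouse carried the floxed Gcgr gene, in which exons 6 to 12 of the glucagon receptor are flanked by loxP sites. LKO mice also carried Albumin-Cre, whose promoter is active in hepatocytes, and CRE- controls lacked Cre. Library totals ran from 33268424 to 56488920 reads assigned to genes.

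Cyp3a enzymes are cytochrome P450s of the endoplasmic reticulum that oxidize many drugs, steroids and bile acids, with electrons passed on from P450 oxidoreductase (Por). In liver their genes are known targets of the nuclear receptors PXR (Nr1i2) and CAR (Nr1i3), which pair with RXR and respond to foreign compounds. Some mouse members are known to differ between the sexes, a difference tied to the pattern of growth hormone release.

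The targeted gene was examined first. Gcgr was at 190.4, 192.9, 127.3 and 189.6 CPM (read counts brought to a common library size, with sizes adjusted by TMM) in male CRE- replicates 1 to 4, and at 116.5, 135.9, 129.9 and 160.3 CPM in male LKO replicates 1 to 4. In females it was at 161.8, 208.1, 200.7 and 180.0 CPM in CRE- mice and at 48.8, 131.9, 118.6 and 93.6 CPM in LKO mice. The female groups did not overlap, and female LKO replicate 1 was lowest, while the male ranges overlapped because control replicate 3 was low. In females Gcgr fell by 0.93 on the log2 scale (SE 0.247, edgeR adjusted p = 0.0443, with Benjamini-Hochberg adjustment over all genes tested). In males the value was -0.37 (SE 0.245, edgeR adjusted p = 0.671). The female call was lost without any 1 of the female mice other than LKO replicate 2, with an edgeR adjusted p between 0.0519 and 0.136, and also without 6 of the 8 male mice. Upper quartile scaling (edgeR adjusted p = 0.0707), no scaling (0.0852), no filter (0.0545), females fitted alone (0.132) and leaving out female LKO replicates 1 and 4 together (0.289) ended it too. Reads on exons outside the deleted segment count too, so these values check the labels only in part.

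Over all genes female LKO replicates 1, 3 and 4 stood apart from the others on the first principal component. It held 23.9% of the variance. Female LKO replicates 1 to 4 lay at 114, 22.1, 42.5 and 75.4 on it, and male LKO replicate 1, at 20.5, was the highest of the others. On the second component, which held 16.8%, male CRE- replicate 3 was highest at 89.6, followed by female LKO replicate 1 at 59.2.

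Of the 8 members, 7 lie in a cluster of 678.7 kb on chromosome 5 of GRCm39, from 145373119 to 146051788, and Cyp3a13 lies 7.45 Mb away, from 137891195 to 137923872. In the order of the chromosome the cluster holds Cyp3a16, Cyp3a41b, Cyp3a41a, Cyp3a44, Cyp3a11 and Cyp3a25 on the minus strand and Cyp3a59 on the plus strand. A further gene of the family in the table, Cyp3a57, lies before Cyp3a16 and was at 0.15 to 1.59 CPM in the 16 mice, with no call in any comparison.

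Cyp3a41a and Cyp3a41b are near-identical copies. Their spliced exons differed at 2 of 2060 aligned bases (99.9% identity), and 82.9% of the 150-base windows of Cyp3a41a, the length of a read, also occur in Cyp3a41b. Reads that align to more than 1 place were not counted, so the summed count of the pair is a lower bound. A read may also be placed on the wrong copy, so the count of either copy alone may be too low or too high. Cyp3a25 and Cyp3a59 shared 13 windows each at 96.9% identity, and no window of Cyp3a11, Cyp3a13, Cyp3a16 or Cyp3a44 occurs in another gene of the family.

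Levels of different members were compared per kb of exon. In male controls Cyp3a11, the main Cyp3a enzyme of mouse liver, led with 1474 ± 242 CPM per kb (SD, n = 4), followed by Cyp3a25 at 283 ± 77.9, Cyp3a13 at 29.5 ± 7.35 and Cyp3a59 at 10.4 ± 1.70 CPM per kb (SD, n = 4). Cyp3a16 at 1.58 ± 0.253 and Cyp3a44 at 1.30 ± 0.466 CPM per kb (SD, n = 4) overlapped, and Cyp3a41a and Cyp3a41b were lower still. The ranges of the other neighbours in this order did not overlap. Per kb of windows found in no other Cyp3a gene, Cyp3a41a at 1.60 CPM per kb lay between Cyp3a16 at 1.73 and Cyp3a44 at 1.40 CPM per kb, with overlapping ranges, so its place depends on the length used.

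In female controls the order was different. Cyp3a11 was again highest at 1151 ± 163 CPM per kb (SD, n = 4), but Cyp3a41a followed at 403 ± 70.4, Cyp3a25 at 272 ± 80.9, Cyp3a44 at 135.9 ± 48.3, Cyp3a16 at 127.0 ± 40.1 and Cyp3a41b at 110.7 ± 27.4 CPM per kb (SD, n = 4). Cyp3a13 and Cyp3a59 were lowest, at 41.6 and 23.3 CPM per kb. Cyp3a41a overlapped with Cyp3a25, Cyp3a25 with Cyp3a44 and Cyp3a16, and Cyp3a44, Cyp3a16 and Cyp3a41b with each other. Per kb of windows found in no other Cyp3a gene, Cyp3a41a stood at 2539 ± 444 and Cyp3a11 at 1241 ± 176 CPM per kb (SD, n = 4), so the place of the near-identical pair depends on the length used. This second scale overstates a copy whose reads are placed through their mates.

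Cyp3a16, Cyp3a41a, Cyp3a41b and Cyp3a44 were female-predominant in controls. Among the 7 members that passed the filter on male mice too, edgeR called 3 higher in female than in male controls at an adjusted p under 0.05, beside 0.412% of the genes tested called in that direction and 0.92% in either. Cyp3a41b is left out of this count because it passed the filter through female mice alone. Cyp3a59 had a log2 difference of 1.16 with ranges that did not overlap and was not called (edgeR adjusted p = 0.275), but it was called without male LKO replicate 1 (adjusted p = 0.014 in edgeR). In male controls Cyp3a41b had 1 or 2 counts per library, so its female mean of 228.7 CPM was at least 3350-fold higher than the male level, taken at a floor of 3 counts per library that covers counting error only. Cyp3a41a had 12 to 32 counts per male control and 28087 to 51961 counts per female control, and its log2 difference was 10.63 (SE 0.921, edgeR adjusted p = 4.62e-06). Cyp3a44 differed by 6.71 (SE 0.577, adjusted p = 4.56e-06) and Cyp3a16 by 6.32 (SE 0.516, adjusted p = 2.81e-06) on the log2 scale in the same edgeR test.

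**Figure D1:**
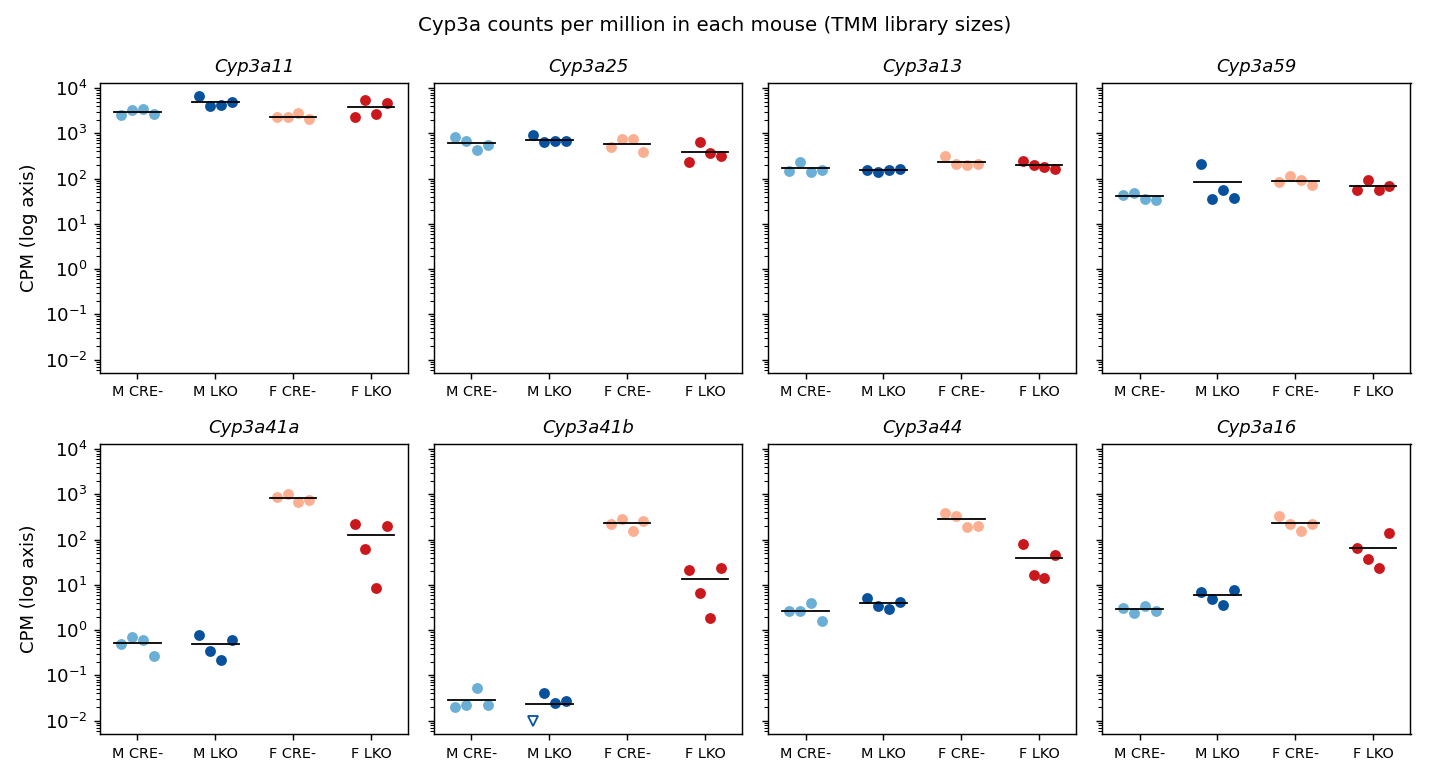
CPM of each member (log axis) in every mouse, with replicates 1 to 4 from left to right in each group; M and F are male and female, black lines are group means, and an open triangle marks a count of 0, drawn at the foot of the axis. In the lower row the 4 female LKO mice lie below the 4 female controls for each gene, and in the upper row the ranges of these groups overlap.

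In female LKO mice these 4 members fell, and they were the members called. The count of 4 of 8, all lower, stands beside 4.24% of the 16742 genes called in either direction and 2.15% called lower. It holds both near-identical copies, and without Cyp3a41b it was 3 of 7. The median log2 fold change was -1.20 over the 8 members, -0.61 over the 7 other than Cyp3a41b and 0.04 over all genes tested. In bulk RNA fewer cells of a type and less RNA per cell cannot be told apart.

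Cyp3a41b was at 221.0, 285.6, 153.4 and 254.8 CPM in female control replicates 1 to 4 and at 21.2, 6.76, 1.902 and 23.8 CPM in female LKO replicates 1 to 4. No LKO value came near a control value, and replicate 3 was lowest. Cyp3a41b had a log2 fold change of -4.10 (SE 0.55, edgeR adjusted p = 0.00274), lower in 4 of 4 LKO mice than in any control.

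Cyp3a41a was at 876.2, 1011, 682.3 and 750.7 CPM in female controls and at 224.3, 62.5, 8.60 and 205.4 CPM in female LKO mice. The groups were apart, but the LKO mice spanned 26.1-fold among themselves, against 1.48-fold in controls, with replicate 3 lowest and replicates 1 and 4 highest. The log2 fold change was -2.73 (SE 0.641, edgeR adjusted p = 0.0298). With the counts of both copies summed before the fit it was -2.93 (SE 0.632, edgeR adjusted p = 0.0227), so the pair was called however its reads were split.

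Counts were also split differently between the copies. Cyp3a41b made up 20.1%, 22.0%, 18.4% and 25.3% of the counts of the pair in female control replicates 1 to 4, and 8.63%, 9.76%, 18.1% and 10.4% in LKO replicates 1 to 4. All LKO shares were below all control shares, replicate 3 only just, and the difference was not tested. In male mice at most 2 counts of the pair per library fell on Cyp3a41b.

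Cyp3a44 was at 397.5, 331.4, 191.4 and 204.7 CPM in female controls and at 79.9, 16.4, 13.9 and 46.6 CPM in female LKO mice. Replicates 2 and 3 of the LKO group were lowest, and no values overlapped. Its log2 fold change was -2.84 (SE 0.478, edgeR adjusted p = 0.00697).

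Cyp3a16 was at 332.8, 216.8, 158.0 and 219.1 CPM in female controls and at 66.3, 37.7, 23.9 and 140.5 CPM in female LKO mice. Replicate 4 of the LKO group came within reach of the lowest control, and replicate 3 was again lowest. Its log2 fold change was -1.79 (SE 0.419, edgeR adjusted p = 0.0297).

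The calls were not equally firm. Without any 1 of the 4 female controls 2 members were called, Cyp3a41b and Cyp3a44, and Cyp3a41a and Cyp3a16 had an adjusted p in edgeR between 0.0504 and 0.0868. Without female LKO replicate 1, Cyp3a16 was lost as well (adjusted p = 0.0761 in edgeR). When females were fitted alone, only Cyp3a41b was called (adjusted p = 0.0377 in edgeR), with nearly the same fold changes for all 4, and Cyp3a44 had an adjusted p of 0.0501. Without female LKO replicates 1 and 4, which lay farthest along the first principal component of all genes, all 4 were called and their log2 fold changes ran from -5.72 to -2.90, an alternative chosen after seeing the data.

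Cyp3a11 was not among the members that fell. It was at 2253, 2277, 2846 and 2075 CPM in female controls and at 2345, 5339, 2681 and 4761 CPM in female LKO mice. Replicates 2 and 4 of the LKO group were above every control, and replicates 1 and 3 lay among them. The log2 fold change was 0.68 (SE 0.268, edgeR adjusted p = 0.15), which did not pass the threshold. Without scaling beyond the library total it did (log2 fold change 0.92, edgeR adjusted p = 0.0424), a setting that moved the median of all genes from 0.04 to 0.30.

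Cyp3a25, Cyp3a59 and Cyp3a13, members that do not belong to the female-predominant group, were not called in females either. Cyp3a25 spanned 387.7 to 742.4 CPM in controls and 229.8 to 633.9 CPM in LKO mice, and its log2 fold change was -0.61 (SE 0.301, edgeR adjusted p = 0.258). Cyp3a59 spanned 73.1 to 111.8 and 56.1 to 94.9 CPM, and Cyp3a13 spanned 198.4 to 324.0 and 164.9 to 247.9 CPM. The ranges overlapped for each of these 3 genes.

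**Figure D2:**
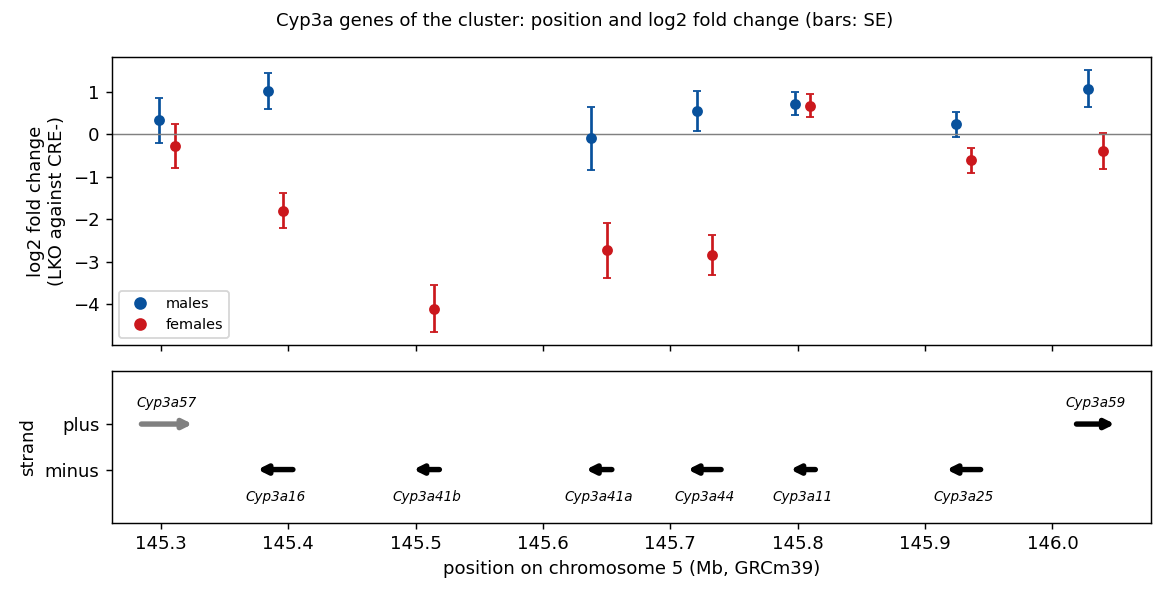
Position and strand of the Cyp3a genes of the cluster (lower panel, arrows in the direction of transcription, Cyp3a57 in grey) and the log2 fold change of LKO against CRE- mice with its SE (upper panel, n = 4 per group). The male value of Cyp3a41b is left out because each male library had 2 counts or fewer, and the female values lie between -4.10 for Cyp3a41b and 0.68 for Cyp3a11.

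In male LKO mice 0 of the 8 members were called by edgeR, by DESeq2 or by limma, beside 0.454% of the genes tested in edgeR. At an unadjusted p under 0.05 there were 3 members in edgeR, 3 in DESeq2 and 1 in limma, beside 9.53%, 12.1% and 13.5% of all genes. The median log2 fold change was 0.40 over the 8 members, 0.56 over the 7 other than Cyp3a41b and -0.01 over all genes.

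Cyp3a11 was at 2550, 3366, 3535 and 2657 CPM in male controls and at 6707, 3966, 4244 and 5032 CPM in male LKO mice. All 4 LKO mice were above all 4 controls, with LKO replicate 1 highest. The log2 fold change was 0.72 (SE 0.268, edgeR adjusted p = 0.363) and stayed between 0.53 and 0.81 with each mouse left out.

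Cyp3a16 was low in males, at 3.17, 2.38, 3.38 and 2.63 CPM in controls and at 6.97, 4.997, 3.68 and 7.81 CPM in LKO mice. These ranges did not overlap either, in the direction opposite to females, but the log2 fold change of 1.02 was not called (SE 0.425, edgeR adjusted p = 0.441). Cyp3a44 was at 1.57 to 3.93 CPM in controls and 2.91 to 5.22 CPM in LKO mice.

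Cyp3a59 was at 44.4, 47.7, 36.4 and 33.6 CPM in male controls and at 211.3, 35.3, 57.6 and 38.1 CPM in male LKO mice. Replicate 1 stood alone, and the log2 fold change of 1.08 (edgeR adjusted p = 0.416) was 0.09 without it. Cyp3a25 and Cyp3a13 had log2 fold changes of 0.24 and -0.13 in males, with overlapping ranges. Cyp3a41a had 9 to 32 counts per male library, and Cyp3a41b had 0 to 2, too few for a fold change.

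The same male LKO mouse differed in other sex-biased genes. Cux2, a female-biased repressor in liver, was at 60.4 CPM in male LKO replicate 1 and at 0.83, 0.89 and 0.54 CPM in replicates 2 to 4. The summed level of the male-biased list was 2913 CPM in replicate 1 and 17850, 26100 and 19890 CPM in replicates 2 to 4. In male control replicates 1 to 4 that sum was 9231, 7871, 10120 and 10920 CPM. Much of the difference in the sum lay in its most abundant gene, Mup20. Mup20 was at 232.5, 10150, 18450 and 12300 CPM in male LKO replicates 1 to 4 and at 3690, 1840, 3432 and 4165 CPM in male controls. The Cyp3a41a level of male LKO replicate 1, at 0.77 CPM, was the highest of the males, with the others between 0.22 and 0.71 CPM. That rank rests on 30 counts, against 32 in male control replicate 2, and Cyp3a41b had 0 counts in male LKO replicate 1. The Cyp3a44 level of this mouse, at 5.22 CPM, was also the highest, and its Cyp3a16 level of 6.97 CPM was below only replicate 4 at 7.81 CPM. The part of the sex-biased genes in the Cyp3a59 and Cyp3a11 levels of this mouse was not tested.

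The sex difference in the response was tested as an interaction. In edgeR 0 of the 8 members and 0% of all genes passed, with 4 members and 2672 genes at an unadjusted p under 0.05. DESeq2 called 2 members among 369 genes, and limma called 1 among 29. The difference in log2 fold change, female minus male, was -3.41 for Cyp3a44 (SE 0.662, edgeR adjusted p = 0.122) and -2.81 for Cyp3a16 (SE 0.595, edgeR adjusted p = 0.135). Both were called by DESeq2 (adjusted p of 0.000163 and 0.00161), and Cyp3a44 also by limma (adjusted p = 0.0241). On simulated data DESeq2 made more false calls than edgeR and limma. Those data were drawn with edgeR's own estimates of spread, so they cannot show how reliable the DESeq2 calls are here. Cyp3a44 was called by edgeR without the filter (adjusted p = 0.0409), and Cyp3a16 without female LKO replicate 4 (-3.46, edgeR adjusted p = 0.0225). Without female LKO replicates 1 and 4 both were called. For Cyp3a41a the difference was -2.64 (SE 0.966, edgeR adjusted p = 0.236). For Cyp3a11 it was -0.04 (SE 0.378, edgeR adjusted p = 0.971), with a 95% interval by normal approximation from -0.78 to 0.70.

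The female-predominant members were also compared between the sexes in LKO mice. Of the 7 members other than Cyp3a41b, 3 were called higher in female than in male LKO mice, beside 0.514% of the genes tested in that direction and 1.13% in either, with log2 differences of 7.99 for Cyp3a41a, 3.52 for Cyp3a16 and 3.31 for Cyp3a44 in edgeR. For Cyp3a41b the female LKO mean of 13.4 CPM was at least 182-fold above the male floor. Cyp3a25 had a log2 difference of -0.91 (edgeR adjusted p = 0.132), which was called without female LKO replicate 2 (-1.25, adjusted p = 0.0321 in edgeR). This comparison shares its libraries with those above.

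Summed over the 8 members, the level was 4992, 5190, 5063 and 4174 CPM in female controls and 3271, 6387, 3348 and 5727 CPM in female LKO mice, so the groups overlapped. In males it was 3566, 4337, 4138 and 3397 CPM in controls and 8006, 4797, 5150 and 5925 CPM in LKO mice, which did not overlap. The make-up of the sum is a description and was not tested. Cyp3a16, Cyp3a41a, Cyp3a41b and Cyp3a44 held 39.2%, 37.5%, 24.7% and 36.2% of the summed level per kb in female controls and 12.9%, 2.06%, 1.60% and 7.75% in female LKO mice. Cyp3a11 held 45.8% to 58.5% in female controls and 76.2% to 86.3% in female LKO mice, against 75.0% to 88.2% in male controls. These shares depend on the length used for the near-identical pair. Per kb of unique windows Cyp3a11 held 20.3% to 32.1% in female controls and 55.1% to 83.0% in female LKO mice, and the 4 female-predominant members held 58.8% to 72.3% and 3.15% to 37.1%, shares added after seeing the data.

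Receptors and partners that act on Cyp3a genes were followed next. Nr1i2, the receptor PXR, was at 74.2, 91.3, 89.5 and 72.3 CPM in female controls and at 52.5, 97.1, 80.7 and 89.0 CPM in female LKO mice, and its log2 fold change was -0.04 (edgeR adjusted p = 0.948). Nr1i3 (log2 fold change -0.34), Rxra (0.00), Hnf4a (-0.17) and Por (0.37) were not called in females, and none of these 5 genes was called in males. Of the 11 genes of the xenobiotic receptor list edgeR called 1 in each sex, beside 4.24% of all genes in females and 0.454% in males. At an unadjusted p under 0.05 there were 2 in females and 3 in males, DESeq2 called 1 and 2, limma called 1 and 1, and the medians were -0.27 and -0.10. All genes had 21.4%, 10.7% and 11.8% in females and 9.53%, 2% and 0.884% in males by the same 3 counts. The gene called by edgeR was Esr1, the estrogen receptor alpha, with log2 fold changes of -1.32 in females (SE 0.262, edgeR adjusted p = 0.0173) and -1.33 in males (SE 0.263, edgeR adjusted p = 0.036).

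Esr1 was at 57.2, 55.2, 40.0 and 44.8 CPM in female controls and at 30.0, 16.8, 16.04 and 16.1 CPM in female LKO mice. In males it was at 26.1, 22.9, 39.4 and 21.4 CPM in controls and at 14.2, 11.7, 10.7 and 6.97 CPM in LKO mice. LKO values were below all control values in both sexes. The female call of Esr1 was lost without female control replicate 2 (edgeR adjusted p = 0.0627). The male call was lost without scaling (0.0876), without any 1 of 6 male mice (0.0639 to 0.0967) and without female control replicate 2 (0.0501).

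Growth hormone signalling genes included 2 of 11 that fell in female LKO mice, beside 2.15% of all genes called lower, with 3 at an unadjusted p under 0.05 (21.4% of all genes), 2 called by DESeq2 (10.7%) and 3 by limma (11.8%). In males edgeR called 0, with 4 at an unadjusted p under 0.05 (9.53% of all genes), and DESeq2 and limma called 0. Ghr, the growth hormone receptor, was at 371.9, 470.3, 479.1 and 428.0 CPM in female controls and at 127.8, 246.2, 205.8 and 158.3 CPM in female LKO mice, and fell by 1.24 on the log2 scale (SE 0.252, edgeR adjusted p = 0.0184). Igfals, a growth hormone target that stabilizes circulating IGF-1, changed by -1.42 on the log2 scale (SE 0.247, edgeR adjusted p = 0.00939). Socs2 of the same list lay the other way, at 19 to 23.3 CPM in female controls and 30.1 to 46.9 CPM in female LKO mice. These ranges did not overlap, and edgeR did not call it. The median of the list was -0.02 in females. The call of Ghr was lost with females fitted alone (edgeR adjusted p = 0.0501), without female control replicate 2, 3 or 4 (0.0533 to 0.0666) and without female LKO replicates 1 and 4 (0.18), and Igfals was lost in the last of these (0.1).

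Other sex-biased genes were counted in the same way. The 20 female-biased genes were chosen for this bias, with earlier results of these data known, so their sex difference is no separate test. Of these 20 edgeR called 9 higher in female than in male controls, beside 0.412% of all genes. In female LKO mice edgeR called 1, A1bg, lower, beside 2.15% of all genes, with 3 at an unadjusted p under 0.05, 2 called by DESeq2 and 6 by limma, where all genes had 21.4%, 10.7% and 11.8%. A1bg was at 1363, 2996, 935.0 and 4711 CPM in female controls and at 90.3, 260.4, 11.4 and 10.7 CPM in female LKO mice (log2 fold change -4.75, SE 1.11, edgeR adjusted p = 0.0297). The median of the list was -0.85. In male LKO mice it was 0.78, and edgeR called 0 of the 20, with 9 at an unadjusted p under 0.05 (9.53% of all genes), 3 called by DESeq2 (2%) and 0 by limma. The call of A1bg was lost with females fitted alone (edgeR adjusted p = 0.0716), without any 1 of 6 female mice (0.0503 to 0.0834) and without female LKO replicates 1 and 4 (0.213). Of the 19 male-biased genes tested, Ihh rose by 2.90 and Nudt7 fell by 1.69 on the log2 scale in females, with 5 at an unadjusted p under 0.05, 4 called by DESeq2, 3 by limma and a median of 0.40. For the male-biased list in males edgeR called 0, with 4 at an unadjusted p under 0.05, 2 called by DESeq2, 1 by limma and a median of 0.21. Cux2 itself was at 38.7 to 66.7 CPM in female controls and 25.6 to 96.4 CPM in female LKO mice.

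Among 26 tested CAR and PXR target genes 2 fell in female LKO mice, beside 2.15% of all genes called lower, where the median was -0.47, with 9 at an unadjusted p under 0.05 (21.4% of all genes), 3 called by DESeq2 (10.7%) and 8 by limma (11.8%). In males edgeR called 0, with 6 at an unadjusted p under 0.05 (9.53% of all genes), DESeq2 and limma called 0, and the median was 0.52. The sulfotransferase Sult2a7 was at 23.9, 93.5, 216.4 and 30.8 CPM in female controls and at 0.151, 0.299, 3.53 and 0.0579 CPM in female LKO mice (log2 fold change -6.42, SE 1.24, edgeR adjusted p = 0.016), a call lost with females fitted alone (0.0501) and without female LKO replicates 1 and 4 (0.121). With 1 mouse left out the log2 fold change of Sult2a7 ran from -9.01 to -5.54. The carboxylesterase Ces2a changed by -0.86 (SE 0.22, edgeR adjusted p = 0.041). Of 12 electron donors and heme genes 1, the cytochrome b5 reductase Cyb5r3, fell by 0.94 on the log2 scale, with 4 at an unadjusted p under 0.05, 1 called by DESeq2, 1 by limma and a median of -0.35. Of 13 hepatocyte transcription factors 2 fell, among them Nr5a2 by 0.58 on the log2 scale, with 4 at an unadjusted p under 0.05, 3 called by DESeq2, 3 by limma and a median of -0.21. The calls of Ces2a, Cyb5r3 and Nr5a2 were each lost with upper quartile scaling, without scaling, without the filter and with females fitted alone. They were also lost in 10, 15 and 12 of the 16 fits with 1 mouse left out, and without female LKO replicates 1 and 4 (edgeR adjusted p of 0.263, 0.368 and 0.233).

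Some markers of other cells and of tumour tissue were called higher in the same female LKO mice. The 8 macrophage markers, none at 0 in any mouse, summed to 695.9, 500, 544.8 and 867.6 CPM in female controls and to 3013, 892.4, 1938 and 1291 CPM in female LKO mice, with 1 of 8, Adgre1, called higher by edgeR. Lyz2 was the most abundant over all 16 mice, but Clec4f had the higher mean in female controls (207 against 182 CPM) and in female LKO mice (426 against 403 CPM). All 8 had an unadjusted p under 0.05, DESeq2 called 6 and limma 7, and the median log2 fold change was 1.45. The 5 neutrophil markers, with S100a9 the most abundant over all 16 mice, summed to 34.5, 19.04, 16.2 and 15.9 CPM in controls and to 102.0, 41.9, 57.4 and 491.7 CPM in LKO mice, with at most 1 marker at 0 in a library. Of the 4 tested edgeR called 1, Retnlg, all 4 had an unadjusted p under 0.05, DESeq2 called 4 and limma 3, and the median was 3.02. In males the median was -1.87, and all 4 had an unadjusted p under 0.05 (9.53% of all genes), with 0 called by edgeR, DESeq2 or limma. The 5 tumour and oncofetal markers, with H19 the most abundant over all 16 mice, summed to 1.68 to 8.50 CPM in controls and to 12.2, 152.9, 74.4 and 1788 CPM in LKO mice, with at most 2 markers at 0 in a library. Of the 4 tested edgeR called 2, H19 and Afp, 3 had an unadjusted p under 0.05, DESeq2 and limma called 2 each, and the median was 2.54. The male medians were 0.03 for the macrophage list and 0.21 for the tumour list, with 0 and 1 genes at an unadjusted p under 0.05, 0 called in either by edgeR or limma, and 0 and 1 by DESeq2. H19 was also higher in male LKO mice, at 2.29 to 48.5 CPM against 0.284 to 1.89 CPM in male controls, ranges that did not overlap. Over all genes tested in females edgeR called 4.24% in either direction and 2.09% higher, 21.4% had an unadjusted p under 0.05, DESeq2 called 10.7% and limma 11.8%.

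Hepatocyte markers, led by Alb, summed to 109300, 106400, 111500 and 127700 CPM in female controls and to 48060, 87500, 84670 and 65470 CPM in female LKO mice, so the sums did not overlap. Alb made up most of them, at 90200 to 106000 CPM in controls and 41700 to 72000 CPM in LKO mice. The ranges of Apoa1, Ttr, Serpina1a and Cps1 each overlapped between these groups. Of the 5 markers edgeR called 0, with 2 at an unadjusted p under 0.05, 1 called by DESeq2, 0 by limma and a median of -0.69. Beside the counts of these lists, all genes tested in females had 4.24% called by edgeR, 10.7% by DESeq2 and 11.8% by limma, and 21.4% at an unadjusted p under 0.05. The acute-phase list had 1 of 20 genes called in females, Il1rn, with 9 at an unadjusted p under 0.05, 1 called by DESeq2, 2 by limma and a median of 0.76. Its male median was -0.37, with 0 called by edgeR, 3 at an unadjusted p under 0.05, 1 called by DESeq2 and 0 by limma. The periportal list had 1 of 12, Cyp2f2, which changed by -2.42 on the log2 scale, with 9 at an unadjusted p under 0.05, 4 called by DESeq2, 5 by limma and a median of -0.68. In males the periportal median was -0.71, and edgeR called 0, with 7 at an unadjusted p under 0.05 (9.53% of all genes), 2 called by DESeq2 and 2 by limma. The Cyp2f2 call was lost without female LKO replicates 1 and 4 (edgeR adjusted p = 0.152). The pericentral list had 0 of 13 called by edgeR, DESeq2 or limma and 0 at an unadjusted p under 0.05. In the small intestine list Fabp2 was called lower among 2 tested genes, both with an unadjusted p under 0.05 and 1 called by DESeq2 and by limma. In females DESeq2 called 1 gene of the endothelial list, and limma called 1 of the stellate list. The T and NK cell, B and plasma cell, endothelial, stellate and cholangiocyte lists had none called by edgeR. Together with the hepatocyte and pericentral lists these 7 held 44 tested genes, of which edgeR called 0, with 4 at an unadjusted p under 0.05, DESeq2 called 2 and limma 1. In males 19 lists, all but the xenobiotic receptors, had 0 calls among 191 tested genes in edgeR, with 40 at an unadjusted p under 0.05, 10 called by DESeq2 and 3 by limma, beside 0.454%, 9.53%, 2% and 0.884% of all genes. The part of these cells and of tumour tissue in the Cyp3a levels was not tested.

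Other genes near the members were tested as well. Of 36 genes within 500 kb of the cluster 18 were tested, and edgeR called 0 in females and 0 in males, with 2 at an unadjusted p under 0.05 in each sex and 0 called by DESeq2 or limma. Around Cyp3a13 38 of 63 were tested, and edgeR called 0 in either sex. At an unadjusted p under 0.05 there were 6 in females, where DESeq2 called 2 and limma 4, and 1 in males, where both called 0. The shares of all genes were 21.4% at that p, 10.7% in DESeq2 and 11.8% in limma in females, and 9.53%, 2% and 0.884% in males. The medians near the cluster were -0.12 in females and 0.07 in males. The expressed genes next to the cluster include Zscan25 and Rnf6, with log2 fold changes of 0.17 and 0.13 in females.

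Genes most like a member were ranked by the smaller of 2 Pearson correlations of log2 CPM, over the 8 male and over the 8 female mice, as a description in which the genotype groups are part of the spread. Cyp3a11 was most like Gss (r = 0.87 in each sex), Cyp3a25 like Eif4a2 (0.92 in males, 0.88 in females) and Nr1i3 (0.87 and 0.90), and Cyp3a13 like Glyr1 (0.73 and 0.74). Cyp3a16 was most like Cyp2c69 (0.70 and 0.71). In males the correlations of Cyp3a41a and Cyp3a41b rest on very few counts and are not given.

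The promoters of the members that moved together were compared, from 250 bases before to 50 bases after the start of each gene in GRCm39, taken from the gene ends of the count table. Those of Cyp3a16, Cyp3a41a, Cyp3a41b and Cyp3a44 were 94.1% to 99.7% identical where aligned and 80.1% to 82.7% identical to that of Cyp3a11, so they are related copies and not separate observations. The letters ATCAAT, a core of HNF6 sites, were present on the same strand in these 4 promoters and in 0 of the other 4, beside 7.5% of the 32851 RefSeq promoters of the same length (GRCm38.p6) with a match on either strand. TATAAA was found in 6 of 8 members (13.6% of all promoters) and AGGTCA, a nuclear receptor half-site, in 4 of 8 (16.3%), namely Cyp3a11, Cyp3a25, Cyp3a44 and Cyp3a59. TTCNNNGAA for STAT5 (8.3%) and TTGCGCAA for CEBP (0.2%) were found in 0 of 8, and 1 further motif that was searched is not reported. The motifs did not overlap each other, and a match is a description of letters only. Of the 8 windows 6 differ from those of the RefSeq table. At the GENCODE starts, which lie 0 to 3990 bases away, ATCAAT and AGGTCA were again found in 4 members each and TATAAA in 5, an alternative chosen after seeing the data.

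The promoters of Cyp3a41a (chr5:145656897-145657196), Cyp3a44 (chr5:145742652-145742951) and Cyp3a11 (chr5:145816615-145816914), all on the minus strand of GRCm39, are printed 5′ to 3′ to show the difference between 2 members that fell and 1 that did not. Capitals mark the letters of the motifs found, wherever they lie in the window, and TATAAA is not shown to be the TATA box of these genes.
Cyp3a41a: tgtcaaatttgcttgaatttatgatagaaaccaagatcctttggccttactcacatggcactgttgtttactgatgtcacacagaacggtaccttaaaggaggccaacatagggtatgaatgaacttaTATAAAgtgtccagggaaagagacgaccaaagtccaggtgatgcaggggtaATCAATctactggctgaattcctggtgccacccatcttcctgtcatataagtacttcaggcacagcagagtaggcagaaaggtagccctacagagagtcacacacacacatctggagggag
Cyp3a44: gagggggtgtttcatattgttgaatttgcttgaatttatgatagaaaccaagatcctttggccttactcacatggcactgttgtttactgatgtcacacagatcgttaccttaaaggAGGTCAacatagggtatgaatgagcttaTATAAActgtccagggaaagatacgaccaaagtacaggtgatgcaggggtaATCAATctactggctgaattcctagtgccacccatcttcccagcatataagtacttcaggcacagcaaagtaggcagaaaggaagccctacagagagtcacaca
Cyp3a11: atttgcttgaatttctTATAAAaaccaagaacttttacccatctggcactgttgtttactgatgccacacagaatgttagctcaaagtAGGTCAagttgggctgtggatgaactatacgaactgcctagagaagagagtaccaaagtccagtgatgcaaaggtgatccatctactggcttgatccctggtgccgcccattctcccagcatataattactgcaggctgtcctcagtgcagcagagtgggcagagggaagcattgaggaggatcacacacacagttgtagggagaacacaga
In Cyp3a41a the ATCAAT match runs from -71 to -66 relative to the start of the gene, and in Cyp3a44 from -54 to -49. TATAAA begins at -122 in Cyp3a41a, -105 in Cyp3a44 and -234 in Cyp3a11. These positions hold for the starts used here, and the GENCODE start lies 0, 15 and 203 bases away in these 3 genes.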

How the data were processed

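Poly-A RNA from 16 livers was sequenced in pairs of 150-base reads. Alignment by the authors used STAR 2.7.1a and GRCm39, and they deposited a count of reads per gene and mouse from featureCounts (Subread 2.0.6), which used the strand, counted reads and not pairs, and left out reads aligned to several places. Members and gene lists were chosen with earlier results of these data known, and so were the promoter motifs. Genes were filtered with filterByExpr (minimum count 10), normalized by TMM and fitted jointly in 4 groups by edgeR 4.0.16 (R 4.3.3). Its quasi-likelihood p was adjusted by Benjamini-Hochberg over all 16742 genes, at a threshold of 0.05. log2 CPM used a prior count of 2. The genes named are the members, other Cyp3a genes, Gcgr, Nr1i2, Nr1i3, Rxra, Hnf4a, Por and, for 20 lists, genes among the 5 with the smallest p in a comparison, and genes among the 3 most like a member. Cux2, Zscan25 and Rnf6 were named after their values were seen. Alternatives were DESeq2 1.42.0, limma 3.58.1 (voom with quality weights), other scalings, no filter, a replicate block, each sex alone, a threshold of 0.01, the summed copies and leaving out each mouse.

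Same-numbered LKO and CRE- mice deviated together from their group means (r from 0.15 to 0.39 over 8668 genes in the 8 pairs), although not every mouse correlated best with its own number, and the labels give no source for a pairing. The counts of the 24 pairs of mice within a group differed by more than sampling noise (lowest chi-square per gene 36.5). The steps were tested on data simulated with edgeR's own estimates of spread, where DESeq2 exceeded a first bound on false calls. After this the bound was made stricter and was applied to edgeR and limma only. Totals ranged from 33268424 to 56488920 counts per mouse, and counts under 10 per library carry a large counting error.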

Additional observations from a re-analysis of the deposited data

Results flagged for a closer look

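In 40 groups of 4 mice (the 8 members, Gcgr and the summed level in each group), 6 held a mouse far from the other 3. Chance flags about 1 in 20 groups. Cyp3a59 was at 211 CPM in male LKO replicate 1, with the others between 35.3 and 57.6 CPM, and in the same mouse Cyp3a25 was at 920 CPM, with the others between 643 and 688 CPM. Cyp3a13 was at 230 CPM in male control replicate 2, with the others between 138 and 153 CPM, and at 324 CPM in female control replicate 1, with the others between 198 and 214 CPM. Gcgr was at 127 CPM in male control replicate 3, with the others between 190 and 193 CPM. Cyp3a41b was at 0.052 CPM in male control replicate 3, which is 2 counts against 1 in each of the others.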

How the results depend on the processing

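Under the alternatives 0 members were called in males in every fit. The female count of 4 was 1 with each sex fitted alone, 2 at a threshold of 0.01, and 2 to 4 with 1 mouse left out. Without scaling it was 5, Cyp3a11 being called higher (log2 fold change 0.92), where the median of all genes moved from 0.04 to 0.30. The interaction count of 0 was 2 with DESeq2, 1 without the filter, 1 with limma, 2 without female LKO replicates 1 and 4 together (chosen after seeing the data), and 0 to 1 with 1 mouse left out. The replicate block kept counts of 4 in females, 0 in males and 0 in the interaction, and it changed no call of a member. In female controls the level per kb of unique windows was 2539 for Cyp3a41a and 686.8 for Cyp3a41b, since fewer windows divide the same counts, and the summed level without scaling was 4355 CPM. Signs changed for some values that were not called. Without scaling these were Cyp3a11 and Cyp3a13 in the interaction (0.10 and 0.05), Cyp3a13 in females (0.01) and Cyp3a41a in males (0.00). Without female LKO replicates 1 and 4 the Cyp3a11 interaction was 0.07, and with limma Cyp3a59 in female against male LKO mice was 0.48. With 1 mouse left out, the ranges were -0.26 to 0.16 (Cyp3a11 interaction), -0.22 to 0.06 (Cyp3a13 males), -0.32 to 0.06 (Cyp3a13 interaction), -0.22 to 0.09 (Cyp3a25 female against male controls), -0.41 to 0.15 (Cyp3a41a males) and -0.56 to 0.67 (Cyp3a59 female against male LKO mice). The cause of these changes was not tested. With 4 mice per group and 2 counts or fewer of Cyp3a41b in males, a fall of that gene in males was not detectable at this depth.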
